A study of Mus musculus with 7 samples.

Results

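Expanded T cell clones of the young intestinal epithelium were set against cells whose T cell receptor (TCR) was seen once. A clonotype is a group of cell barcodes that share the same rearranged receptor chains. Within young IEL (small intestinal intraepithelial lymphocytes), a clonotype counted as expanded when it held at least 5 barcodes of the expression matrix and as single when it held 1. The young IEL pool held 4348 cells, of which 2810 had a clonotype. The 76 expanded clonotypes made up 698 cells, or 24.8% of the cells with a clonotype (95% interval 23.3 to 26.5), and 1468 cells were single. The 258 clonotypes of 2 to 4 barcodes, with 644 cells, lay between these groups, and 1538 cells had no TCR contig. The largest clonotype held 27 cells. At the threshold, 20 clonotypes held 5 barcodes and 35 held 4. The CD4 class defined below took 38.0% of the cells of the former (28.5 to 48.3) and 40.7% of the latter (32.5 to 49.3).

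The series profiled T cells of the small intestine and spleen (SP) of C57BL/6 mice, labelled male, at 6 and 80 weeks, in 4 groups of 21365 cells in all. Young IEL came from mice of 6 weeks whose cells were pooled (3 young mice by the protocol, though the sources differ on the number), enriched for CD45+ cells and marked with 1 hashtag antibody, so mice cannot be told apart and there is no replicate. For IEL, a sort on CD3 was mixed in equal parts with a sort on CD3 and CD4, so the share of CD4 cells follows the sort as well as the tissue. The added sort also sampled clones of CD4 cells more deeply. Whether such a clone counted as expanded or single thus follows the sort too. Libraries of 5' gene expression and of TCR sequences were made from the same cells. Because cells of 1 pool and of 1 clonotype are not replicates, no test was made, and all intervals are 95% intervals that cover counting error only, exact binomial (Clopper-Pearson) for shares and exact Poisson for levels.

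Intraepithelial T cells lie between the epithelial cells of the gut. Natural IEL acquire their programme in the thymus and carry a CD8α homodimer together with receptors and adaptors shared with natural killer (NK) cells. Induced IEL come from conventional CD4 or CD8αβ T cells that were activated in the periphery, and CD4 cells among them can gain CD8α and cytotoxic genes after arrival. A clone that has divided leaves several cells with the same receptor. The number of its barcodes reflects past division and also how deeply its cells were sampled.

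The CDR3 region, where the V and J segments join (with a D segment between them in TRB), identifies a clone. The sequences of 6 clonotypes are shown because these clones stand for the kinds described below. They were clonotype1 and clonotype2 (*Cd4* and *Fcer1g* together), clonotype3 and clonotype4 (*Cd4* with little *Fcer1g*), clonotype5 (*Fcer1g* and *Cd8a* with no *Cd4*) and clonotype10 (*Cd8b1*). Each is given 5′ to 3′ in lower case, and capitals mark the bases matched to neither the V nor the J segment of the GENCODE M21 transcripts. D segments were not matched, so the capitals of a TRB chain can hold germline D bases. The TRBV10 segment of clonotype10 could not be matched in that way, so that chain has no capitals.
clonotype1 TRA: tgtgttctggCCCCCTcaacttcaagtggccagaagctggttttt
clonotype1 TRB: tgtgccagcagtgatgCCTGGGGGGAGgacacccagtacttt
clonotype2 TRA: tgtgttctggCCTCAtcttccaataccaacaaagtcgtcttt
clonotype2 TRB: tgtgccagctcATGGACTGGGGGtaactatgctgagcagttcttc
clonotype3 TRA: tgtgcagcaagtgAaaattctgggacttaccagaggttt
clonotype3 TRB: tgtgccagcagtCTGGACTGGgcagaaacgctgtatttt
clonotype4 TRA: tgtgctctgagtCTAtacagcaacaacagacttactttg
clonotype4 TRB: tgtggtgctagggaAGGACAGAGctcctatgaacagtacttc
clonotype5 TRA: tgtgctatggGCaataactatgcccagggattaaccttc
clonotype5 TRB: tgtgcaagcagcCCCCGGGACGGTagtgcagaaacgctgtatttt
clonotype10 TRA: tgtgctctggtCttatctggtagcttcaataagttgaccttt
clonotype10 TRB: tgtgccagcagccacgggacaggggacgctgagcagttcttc

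The TRA and TRB sequences shown for clonotype1 were each found in all 27 of its cells, those of clonotype3 in all 24, and the TRB sequence of clonotype2 in 24 of its 25 cells. Only 1 sequence per chain is shown. Clonotype1, clonotype5 and clonotype10 held 2 TRA sequences each, and clonotype3 held 2 TRB sequences. TRA junctions were short and TRB junctions longer, where the TRB stretch includes any D segment bases. The unmatched stretch was 6 bases in the TRA and 11 in the TRB chain of clonotype1, and 2 and 12 bases in those of clonotype5. Counting each clonotype once, the TRA CDR3 had a mean of 40.3 ± 3.93 bases (SD, n = 76) in expanded and 41.0 ± 4.05 bases (SD, n = 1104) in single clonotypes. The TRB CDR3 had 42.0 ± 4.58 bases (SD, n = 76) and 42.4 ± 4.33 bases (SD, n = 1432). Among the expanded clonotypes whose cells were mostly in the CD8αα class with *Fcer1g*, the TRB CDR3 averaged 45.0 ± 4.0 bases (SD, n = 10), against 40.8 ± 4.58 (SD, n = 49) in those mostly in the CD4 class. The single cells of the same classes averaged 43.9 ± 3.97 (SD, n = 367) and 41.7 ± 4.17 (SD, n = 479) and lay in the same order. Of the 22 TRBV genes, 0 had intervals of use that lay apart between expanded and single clonotypes. Of the 83 TRAV genes, 6 did, and no correction was made for their number.

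No barcode was listed in more than 1 group of mice. Among the single cells, 288 (19.6%) carried a TRB sequence that was also in another young IEL barcode, and 40 (2.72%) one of an expanded clonotype. The shares without these 288 cells were computed as an alternative. Both chains were found in 97.1% of the expanded and 72.8% of the single cells. The same TRA and TRB pair was found in young SP for 11 young IEL clonotypes.

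The depth of the groups was close, with a median of 6573 UMIs (unique molecular identifiers, each standing for 1 captured RNA molecule) per cell in expanded, 6908.5 in clonotypes of 2 to 4 and 6197 in single cells. All expanded and single cells had a UMI of *Cd3d*, *Cd3e* or *Cd3g*. The summed levels of markers of other cells were low in both. The 15 epithelial genes summed to 0.769 UMIs per 10000 in expanded and 0.912 in single cells, the 9 B cell genes to 0.928 and 1.71 and the 11 myeloid genes to 2.92 and 2.43, led by *Epcam*, *Ighm* and *Cst3*. Cells with any UMI of these genes were common, however. They made up 33.7% of expanded and 34.3% of single cells for the epithelial genes. The shares were 34.2% and 51.0% for the B cell genes and 70.9% and 62.5% for the myeloid genes. Cells with more than 1 TRB chain, which can be doublets, numbered 39 of the 698 expanded and 98 of the 1468 single cells.

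*Cd4* and *Cd8a*, the coreceptor genes, were found in a larger share of expanded than of single cells, while *Trdc*, the constant region of the δ chain, was found in fewer. To compare shares at 1 depth, every cell was reduced to 2000 randomly drawn UMIs, and 0 of these cells were too shallow for it. A *Cd4* UMI was then found in 32.8% of expanded cells (29.3 to 36.4), 24.4% of those in clonotypes of 2 to 4 (21.1 to 27.9) and 18.9% of single cells (16.9 to 21.0). Before thinning, the shares of expanded and single cells were 61.6% and 39.2%. The background was measured in young SP cells with a *Cd8b1* UMI, whose median was 6475.5 UMIs. It was 5.82% after thinning and 12.7% before. *Cd8a* was found in 68.2% of expanded (64.6 to 71.6), 60.9% of intermediate and 52.3% of single cells (49.7 to 54.9) after thinning. Before thinning, it was found in 75.9% of expanded and 57.2% of single cells. Its background in young SP cells with a *Cd4* UMI, at a median of 5455 UMIs, was 2.16% after thinning and 4.51% before. *Trdc* was found in 0.716% (0.233 to 1.66), 2.02% and 7.56% (6.26 to 9.03), in the same order, over a background of 0.343%. Its unthinned shares were 2.29% of expanded and 13.6% of single cells. Clonotypes rest on TRA and TRB chains. A cell that carries only γ and δ chains thus has no clonotype and can count neither as expanded nor as single. Of the 1538 cells with no TCR contig, 70.3% had a *Trdc* UMI. What part this rule has in the lower *Trdc* share of expanded cells was not tested, and the share is not read as a lineage difference.

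*Cd8b1*, the β chain that marks conventional CD8 T cells, did not differ by more than counting error, with 11.3% of expanded (9.06 to 13.9) and 10.3% of single cells (8.78 to 12), and the difference of 1.03 percentage points had an interval from -1.77 to 4.03. Its background in young SP cells with a *Cd4* UMI was 7.11% after thinning and 14.2% before. Before thinning, it was found in 17.2% of expanded and 14.5% of single cells of young IEL. *Fcer1g* encodes an adaptor of Fc and NK receptors and was listed here with natural IEL genes, though clonotypes with *Cd4* also carried it. It was found in 35.8% of expanded (32.3 to 39.5) and 41.9% of single cells (39.4 to 44.5), or 38.0% and 43.9% before thinning. Its background in young SP cells with a *Cd4* UMI was 0.785% after thinning and 1.62% before. The bars of the 5 lineage genes show *Cd4* and *Cd8a* higher, and *Trdc* lower, at each larger clonotype size.

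**Figure D1:**
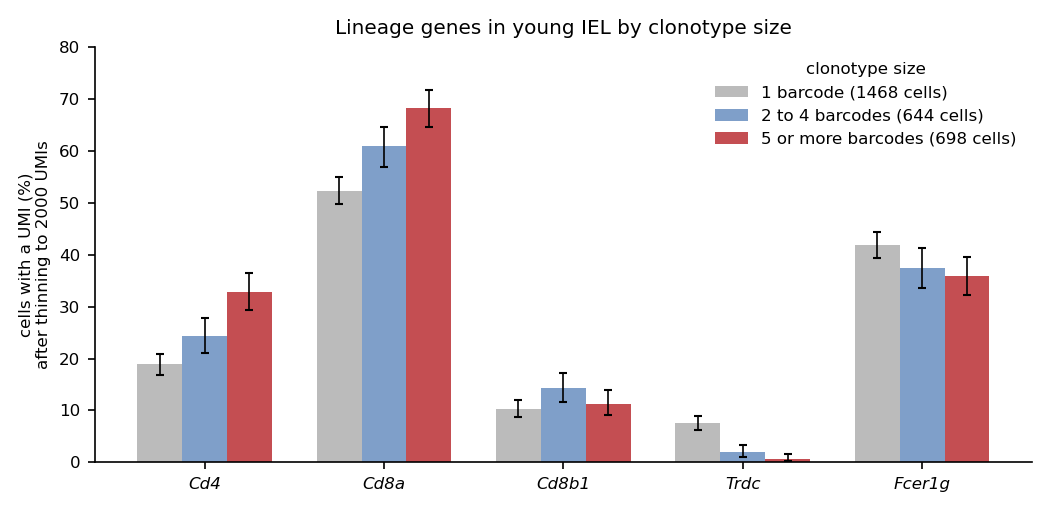
Share of young IEL cells with a UMI of each lineage gene (y axis, percent, after thinning to 2000 UMIs) in clonotypes of 1, 2 to 4, and 5 or more barcodes; error bars are 95% exact binomial intervals. *Cd4* went from 18.9% to 32.8% and *Cd8a* from 52.3% to 68.2%, while *Trdc* went from 7.56% to 0.716%. Clonotypes rest on TRA and TRB chains, and the part of that rule in the *Trdc* shares was not tested.

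Other features moved with clone size. Cells with a UMI of *Ccr7*, *Lef1* or *S1pr1*, genes of naive and recirculating T cells, are called naive-like here. They made up 8.02% of expanded (6.12 to 10.3), 14.6% of intermediate and 32.9% of single cells (30.5 to 35.4). After thinning, these shares were 2.87%, 5.43% and 23.9%. Without naive-like cells, the *Cd8a* difference was -0.696 percentage points (-5.41 to 3.95) in place of 15.9 (11.4 to 20.2), and the *Fcer1g* difference went from -6.08 to -18.8 points. The *Fcer1g* difference was -0.547 points (-4.89 to 3.82) where clonotypes were taken by TRB CDR3. With both chains required the *Trdc* difference was -0.761 points (-1.81 to 0.405) in place of -6.84. Of the 200 single cells with a *Trdc* UMI, 21.0% had both chains, against 100% of the 16 expanded ones, whose median was 11016 UMIs.

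Cells were put in classes by their UMIs as deposited. A *Trdc* UMI came first. Then cells with *Cd4* and no *Cd8b1* formed the CD4 class, those with *Cd8b1* and no *Cd4* the CD8αβ class, and those with *Cd8a* but neither of these the CD8αα class, with or without *Fcer1g*. The CD4 class held 396 expanded cells, or 56.7% (53.0 to 60.4), and 492 single cells, or 33.5% (31.1 to 36), with 41.6% of the clonotypes of 2 to 4 between them. CD4 cells that also had a *Cd8a* UMI made up 36.1% of expanded (32.5 to 39.8), 17.4% of intermediate and 6.13% of single cells (4.96 to 7.48). CD4 cells with an *Fcer1g* UMI made up 15.8%, 6.52% and 4.09%. The CD4 class rests on UMIs of *Cd4*, *Cd8b1* and *Trdc* only. Its share and the size of its clones both follow the added CD4 sort, whose part in these differences was not tested. Other genes of CD4 T cells are given by kind of clonotype below. Between clonotypes of 5 to 9 and of 10 or more barcodes, the intervals overlapped, with a CD4 share of 60.7% (55.5 to 65.8) and 52.5% (47.0 to 57.9).

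The CD8αβ class took 12.8% of expanded (10.4 to 15.5) and 10.4% of single cells (8.84 to 12), and its intervals overlapped. It rests on 1 *Cd8b1* UMI before thinning, so background can place cells in it. An *Fcer1g* UMI was found in 19.1% of its expanded and 24.3% of its single cells before thinning. Its expanded cells included 3 of clonotype13, in which *Fcer1g* was found in 100% and *Cd4* in 66.7% of cells. The CD8αα class with *Fcer1g* took 16.8% (14.1 to 19.7) and 25.5% (23.3 to 27.8). The small CD8αα class without *Fcer1g* went the other way, with 4.87% (3.4 to 6.74) against 1.63% (1.05 to 2.42). Its expanded cells included 6 of clonotype4 and 3 of clonotype11, in which *Cd4* was found in 75% and 73.3% of cells. They also included 4 of clonotype53, in which *Cd4* was found in 16.7% of cells. Another 5 were of clonotype12 and 1 of clonotype18, in which *Cd4* was found in 0 cells. The expanded cells of this class thus came from clonotypes both with and without *Cd4*. Its single cells have no sister cells by which to place them. Cells in no class made up 3.15% of expanded and 12.2% of single cells. Counts of mice behind each share cannot be given, since the mice were pooled.

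Within single clones, *Fcer1g* was close to all or none. Clonotype1 had *Fcer1g* in all 27 cells, clonotype2 in all 25 and clonotype5 in all 24, whereas clonotype3 had it in 0 of 24 and clonotype10 in 0 of 16. Over all 76 expanded clonotypes, 24 had a UMI of *Fcer1g* in every cell, 1 in 66.7% of its cells, and 51 in between 0 and 33.3%, of which 32 had none. *Cd8b1* split in the same manner, with 9 clonotypes at every cell, 2 others at 80.0% or more and 65 at 33.3% or less. *Cd8a* was graded, at 0 in 4 clonotypes, between 0 and all cells in 33 and in every cell in 39. *Cd4* was also graded, with 14 clonotypes at 0 and 16 at every cell. The grading of *Cd4* can be read only with its depth in mind. Thinning to 2000 UMIs left it in 51.8% of young SP cells that had a *Cd4* UMI, whose median was 5455 UMIs. The clonotype shares here are unthinned, so that value is not the rate at which *Cd4* was missed in them.

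The lineage genes sorted 75 of the 76 expanded clonotypes into 5 kinds. A gene counted for a kind where it was found in at least 50% of the cells, except that *Cd4* beside *Fcer1g* needed 2 cells only. Clonotype70, with *Fcer1g* in every cell and *Cd8b1* in 80.0%, was placed with the *Cd8b1* kind. These kinds were set after the values had been seen. The first held 17 clonotypes (178 cells) with *Fcer1g* in every cell and *Cd4* in at least 2 cells. *Cd4* was found in 60.7% of their cells, from 33.3% to 100% of a clonotype, and its level was 1.34 UMIs per 10000, with a lowest of 0.352, a median of 1.25 and a highest of 1.72 over the clonotypes. *Cd8a* was found in every cell and *Cd8b1* in 8.99%. The second held 7 clonotypes (65 cells) with *Fcer1g*, *Cd8a* in every cell and a *Cd4* UMI in 0 cells. The third held 11 clonotypes (85 cells) with *Cd8b1*. The last 2 were *Cd4* clonotypes with little *Fcer1g*, 25 with *Cd8a* in at least 50% of cells (244 cells) and 15 with it in fewer (120 cells). The remaining clonotype held 6 cells, all with *Cd8a*, of which 33.3% had *Fcer1g* and 16.7% *Cd4*.

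The cell classes did not follow these kinds. Of the 117 expanded cells in the CD8αα class with *Fcer1g*, 60 (51.3%) belonged to clonotypes of the first kind, whose sister cells carried *Cd4*. In clonotype1, 18 cells were in the CD4 class and 6 in the CD8αα class with *Fcer1g*. In clonotype2, 14 cells were in the CD4 class. In clonotype5, 23 of 24 cells were in the CD8αα class with *Fcer1g*, and *Cd4* had 0 UMIs. In the plot of cell classes by clonotype, both colours stand in nearly every bar of the first kind and red is absent from the second.

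**Figure D2:**
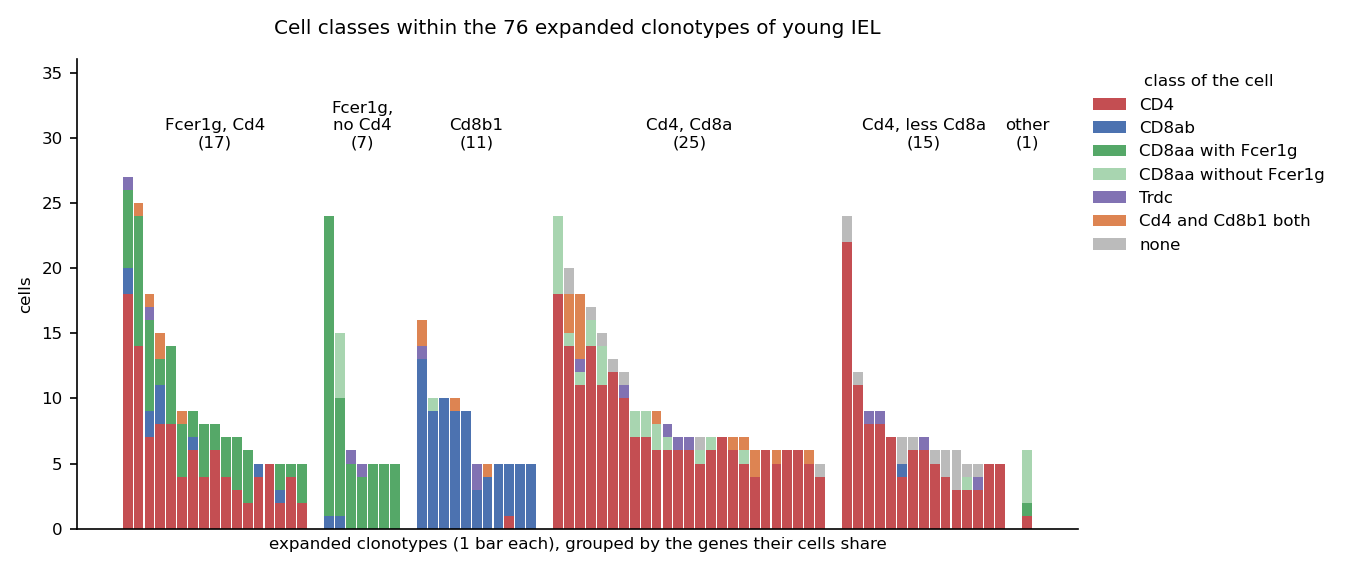
Number of cells (y axis) of each class within each of the 76 expanded young IEL clonotypes (1 bar each), grouped by kind with the number of clonotypes in parentheses; "Cd4, less Cd8a" has *Cd8a* in under 50% of cells. Clonotypes with *Fcer1g* and *Cd4* mix cells of the CD4 class and the CD8αα class with *Fcer1g*, and the 7 with *Fcer1g* but no *Cd4* hold no CD4 class cell.

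**Figure D3:**
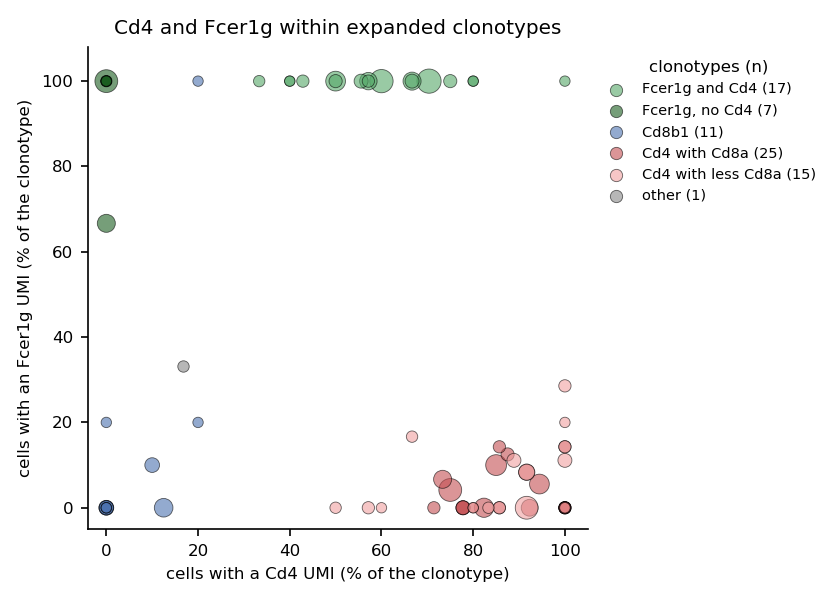
Share of cells with a *Cd4* UMI (x axis, percent) against the share with an *Fcer1g* UMI (y axis, percent) for each expanded clonotype, before thinning; point area follows the number of cells and colour the kind. *Fcer1g* lay at 66.7% or more in 25 clonotypes and at 33.3% or less in 51, while *Cd4* ranged from 0 to 100% along both bands.

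The kinds differed in effector and receptor genes that were not used to define them. The genes named here were chosen after their values were seen, so the values are a description. *Klrd1*, which encodes the CD94 chain of NK receptors, was found in 97.2% of the cells of the first kind, with clonotype levels of 5.28 to 14.7 UMIs per 10000 and a median of 10.4, and in 92.3% of the second, with a median of 9.19. Its median was 0.277 in the *Cd8b1* clonotypes, 0.185 in the *Cd4* clonotypes with *Cd8a* and 0 in those with less *Cd8a*. The clonotypes with *Fcer1g* and *Cd4* thus lay with those with *Fcer1g* alone, and the 1 clonotype outside the kinds had *Klrd1* in all 6 cells. *Tyrobp*, an adaptor of NK receptors, was found in 92.1% and 80.0% of cells of the kinds with *Fcer1g* and in 4.51% and 4.17% of cells of the *Cd4* kinds with little *Fcer1g*.

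*Cd5* and *Cd6*, surface receptors that temper TCR signals, showed the opposite pattern. *Cd5* was found in 1.69% of cells of the first kind and 0% of the second (0 of 65 cells, which allows a share of cells with a UMI of up to 4.62% by the limit of 3 counts and of up to 5.52% by the exact interval), and in 70.6% to 83.6% of cells of the other 3 kinds. *Cd6* was found in 0.562% and 1.54% of cells of the *Fcer1g* kinds and in 82.5% to 92.6% of cells of the other 3. The level of *Ctla4*, an inhibitory receptor, had medians of 0.687 and 0.735 UMIs per 10000 over the clonotypes with *Fcer1g*, against 5.94 and 6.57 over the *Cd4* clonotypes with more and less *Cd8a*. *Lag3*, another inhibitory receptor, went the other way, with medians of 4.09 and 4.78 against 0.820 and 0.404. *Cd40lg*, a further gene of CD4 T cells, was found in 1.12% of cells of the first kind, with 0 UMIs in 15 of its 17 clonotypes. Its medians were 0.786 and 2.83 over the *Cd4* clonotypes with more and less *Cd8a*. *Zbtb7b*, a transcription factor of CD4 T cells, was rare in every kind, and its highest share was 6.18%, in the first. Whether cells of the first kind are CD4 T cells was not tested.

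*Ifng*, the gene of interferon γ, was found in 13.5% of cells of the first kind and 4.62% of the second, and in 62.7% and 51.7% of cells of the *Cd4* kinds with little *Fcer1g*. Its median level was 2.35 UMIs per 10000 over the 25 *Cd4* clonotypes with *Cd8a*, with a lowest of 0.588 and a highest of 6.07. *Gzma*, a granzyme of cytotoxic cells, was found in at least 92.5% of the cells of all 5 kinds. Its level had a median of 482 (254 to 638) in the first kind, 453 (366 to 538) in the second, 161 (107 to 466) in the third, 242 (174 to 341) in the *Cd4* kind with more *Cd8a* and 158 (5.18 to 254) in that with less. The chemokine gene *Ccl5* had medians of 506, 435, 446, 339 and 157, and its ranges over clonotypes overlapped in all 5 kinds.

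**Figure D4:**
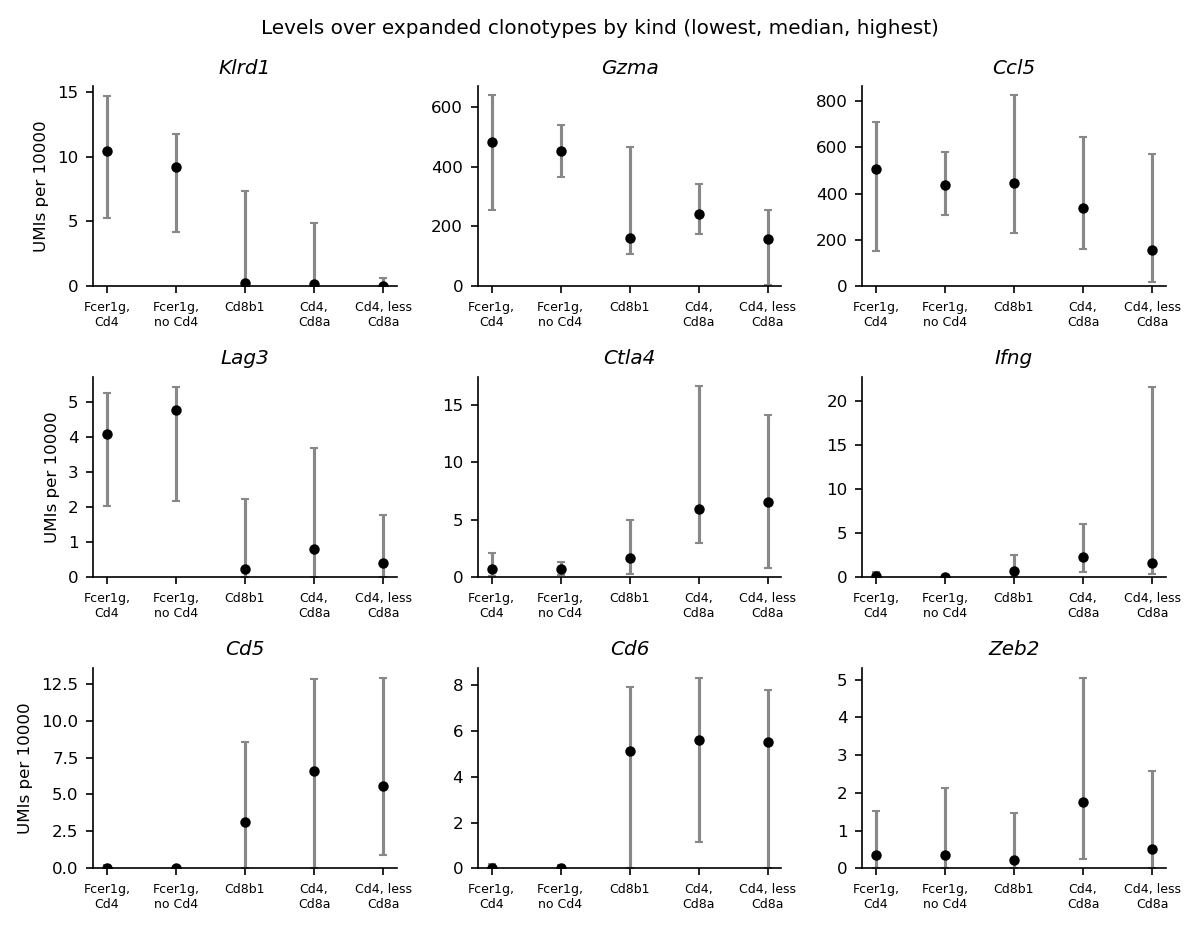
Level (y axis, UMIs per 10000 UMIs, linear from 0) of 9 genes over the expanded clonotypes of each kind; points are medians over clonotypes and bars reach from the lowest to the highest clonotype. The medians of *Klrd1* and *Lag3* were higher, and those of *Ctla4*, *Cd5* and *Cd6* lower, in both kinds with *Fcer1g*, and the highest *Gzma* median was 482.

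Genes were then compared between all expanded and all single cells as levels, the summed UMIs per 10000 UMIs. A gene was called when the log2 ratio, after adding 0.1 to both levels, was past 2-fold, among 3320 genes with a mean level of at least 0.5. With 32 genes called, 0.964% of those tested passed, 7 higher in expanded cells (0.211%) and 25 lower (0.753%), of which 3 were TCR segments. The genes of naive and recirculating cells were lower in expanded clones, with 9 of the 11 list members tested past 2-fold. The median log2 ratio of the list was -2.30, against 0.02 over all genes. All 9 had a level under 0.5 in expanded cells, so they reached the minimum level only through the single cells. *Ccr7*, the chemokine receptor for entry into lymph nodes (chromosome 11, 99144196 to 99155077 on mm10), had a level of 0.0110 in expanded (0.00405 to 0.0240) and 1.58 in single cells (1.5 to 1.66), and its log2 ratio was -3.92. It had 0 UMIs in 71 of the 76 expanded clonotypes. *Klf2*, a transcription factor of quiescence and recirculation, had 0.271 (0.229 to 0.318) and 3.38 (3.27 to 3.49), and 0 of 76 clonotypes lay above the level of the single cells. Without naive-like cells its log2 ratio of -3.23 became 0.13. *S1pr1*, the receptor for exit from lymphoid tissue, had 0.0515 and 0.974, and *Lef1*, a transcription factor of naive T cells, 0.107 and 1.29. *Igfbp4*, *Gramd3*, *Satb1* and *Tnfrsf4*, the last encoding the costimulatory receptor OX40, had log2 ratios of -3.54, -3.21, -2.30 and -2.35. *Ighm*, the leading B cell marker, was also called lower, with 0.538 against 1.34 and a log2 ratio of -1.18.

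The cell cycle genes had higher summed levels in expanded cells in all 13 of the list members tested, with a median log2 ratio of 0.69. Of these, 2 passed 2-fold, and both reached the minimum level only through the expanded cells. *Ube2c*, a ubiquitin-conjugating enzyme of mitosis, had a level of 0.838 against 0.203 (log2 ratio 1.63). *Birc5*, the gene of survivin, had 0.893 against 0.277 (1.40), and *Top2a*, a topoisomerase of dividing cells, 1.43 against 0.681 (0.97). Over the expanded clonotypes, *Ube2c* had a lowest level of 0, a median of 0 and a highest of 6.09 in clonotype4. *Birc5* was at 0 in 41 of the 76, and *Top2a* lay below the level of the single cells in 43. A *Mki67* or *Top2a* UMI was found in 35.7% of expanded (32.1 to 39.4), 35.1% of intermediate (31.4 to 38.9) and 25% of single cells (22.8 to 27.3). After thinning, the shares were 13.6% (11.2 to 16.4), 14.8% and 10.6% (9.10 to 12.3), so the intervals of expanded and single cells overlapped. Such cells were present in 70 of the 76 expanded clonotypes, with a lowest share of 0, a median of 33.3% and a highest of 80.0% of a clonotype.

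*Zeb2*, a transcription factor of terminal effector cells, and *Ifng* were past 2-fold higher as well, beside the replication histone *Hist1h1b* (1.10) and *A430093F15Rik* (1.27). *Hist1h1b* lay below the level of the single cells in 53 of 76 clonotypes, with a highest of 12.8 in clonotype74. *A430093F15Rik* lay above that level in 38 and below in 38, and *Zeb2* above in 47 and below in 29. *Zeb2* had a level of 1.18 (1.09 to 1.27) against 0.411 (0.373 to 0.452), with a log2 ratio of 1.32. *Ifng* (chromosome 10, 118441046 to 118445892) had 1.61 (1.51 to 1.72) against 0.690 (0.641 to 0.742), with a ratio of 1.12. *Ifng* lay above the level of the single cells in 42 of 76 clonotypes, at 0 in 11, and at a highest of 21.7 in clonotype39. *Cd6* followed with a ratio of 0.97 and *Cd5* with 0.81. The cytotoxic genes had a median ratio of 0.31 and 0 of 10 past 2-fold, with *Gzma* at 299 against 211 and *Gzmb* at 81.7 against 57.5. *Gzma* was found in 96.1% of expanded and 73.6% of single cells before thinning. Genes of residency, such as *Itgae*, the gene of the integrin CD103 that binds E-cadherin, had a median ratio of 0.17 and 0 of 15 past 2-fold. *Itgae* itself had 7.71 against 5.33. The lists of inhibitory receptors and of lineage transcription factors had 0 of 7 and 0 of 10 past 2-fold, with medians of 0.15 and 0.06. Of the other lists, the NK receptor and natural IEL genes had 0 of 15 higher and 1 lower (median 0.06), the cytokines and chemokines 1 of 9 higher and 1 lower (0.41), the TCR signalling genes 0 of 21 higher and 2 lower (-0.19) and the T helper 17 and regulatory genes 0 of 5 higher and 2 lower (-0.91).

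Several genes were carried by few clones. *Il17a*, the cytokine of T helper 17 cells, had a level of 1.33 in expanded and 2.60 in single cells, but 66 of 76 expanded clonotypes had 0 UMIs and clonotype48 had 44.9. *Il22*, a cytokine that acts on epithelium, had 0.318 against 0.939, with 0 UMIs in 70 clonotypes and 18.4 in clonotype32, and its ratio of -1.31 became -0.86 when clonotypes had equal weight. *Klra5* and *Klra7*, genes of the Ly49 receptors, were at 0 in 58 and 70 clonotypes and highest in clonotype63 (15.7) and clonotype21 (21.8). The log2 ratio of *Klra5* was 0.62 over all expanded cells and -0.04 without clonotype1, the largest clone, so 1 clone decided its sign.

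Within the CD4 class the contrast was wider. With 102 of 3280 genes called, 3.11% passed, 40 higher in expanded cells (1.22%) and 62 lower (1.89%), of which 5 were TCR segments. Of these 102 genes, 24 were also called over all cells, or 23.5% of the CD4 calls and 75% of the calls in all cells. The 59 clonotypes with CD4 class cells had at most 22 such cells each, in clonotype3. *Cd8a* (chromosome 6, 71373427 to 71379173) had a level of 9.16 (8.83 to 9.50) in expanded and 3.17 (2.99 to 3.36) in single CD4 cells, with a log2 ratio of 1.5. Its share after thinning was 55.1% (50 to 60.0) against 15.2% (12.2 to 18.7). *Fcer1g* (chromosome 1, 171229572 to 171234365) was found in 26.0% (21.8 to 30.6) against 9.76% (7.28 to 12.7), with a ratio of 1.00 that did not reach 2-fold. Over the 54 clonotypes with at least 3 CD4 cells, the *Fcer1g* level lay above that of single cells in 14 and below in 40. It was at 0 UMIs in 33 of them, so a minority of the clones carried the summed *Fcer1g* level. *Cd4* itself differed little, with 3.05 and 3.08.

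Cytotoxic genes were higher in expanded CD4 cells, with 5 of 10 past 2-fold and a median of 0.98 against 0.03 over all genes. *Gzma* had 285 (283 to 287) against 83.9 (82.9 to 84.8), and over the 54 clonotypes with at least 3 CD4 cells its level ranged from 5.81 to 638 with a median of 245, 47 of them above the single cells. *Gzmb*, another granzyme, had 79.9 against 30.4, and *Nkg7*, a granule protein, 22.7 against 10.2. Chemokine genes were higher too, *Ccl5* with 361 against 109, *Ccl4* with 12.2 against 4.26 and *Ccl3* with 0.935 against 0.150. NK receptor genes had 5 of 10 past 2-fold and a median of 1.02, among them *Klrd1* (2.98 against 0.951) and *Cd244a*, an NK and T cell receptor (1.33 against 0.431). *Cd244a* lay above the single cells in 45 of 54 clonotypes. *Klrd1* lay above them in 18, below in 36 and at 0 in 24, with a median of 0.202. A minority of the clones thus carried its summed level. *Zeb2* had 1.39 against 0.338, and 38 of 54 clonotypes lay above the single cells. *Itgae* (7.49 against 2.84), *Itga1*, the α chain of a collagen receptor (2.17 against 1.01), and *Jaml*, a receptor for an epithelial junction protein (3.71 against 1.44), were the 3 of 16 residency genes past 2-fold.

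Lower in expanded CD4 cells were the naive genes, with 10 of 12 past 2-fold and a median of -2.84. All of the 10 except *Il7r* reached the minimum level only through the single cells. *Ccr7* had a ratio of -4.59, *Klf2* of -4.01 and *S1pr1* of -3.50. The list of T helper 17 and regulatory genes had 5 of 7 lower past 2-fold and a median of -1.63. Among these, *Il18r1*, *S100a4* and *Tnfrsf4* reached the minimum level only through the single cells. *Il17a* had 2.29 against 7.31, *Il22* 0.545 against 2.76 and *Tnfrsf4* 0.165 against 1.96. *Il17a* stood at 0 UMIs in 45 of 54 clonotypes and at 109 in clonotype67, and its share of cells was 2.78% (1.39 to 4.92) against 6.30% (4.32 to 8.82) after thinning. With equal weight per clonotype its ratio was -0.82 in place of -1.63. *Foxp3*, the factor of regulatory T cells, was found in 0.758% (0.157 to 2.20) against 5.28% (3.48 to 7.65). Costimulatory receptors were lower as well, *Cd28* with 0.555 against 2.56 and *Icos* with 1.40 against 3.62, whereas *Nr4a2*, a gene induced by TCR signals, had 4.96 against 1.95. In the TCR signalling list as a whole, 1 of 21 was past 2-fold higher and 5 lower. In the plot of gene ratios the CD4 class lies farther from 0 than all cells for naive, cytotoxic and NK receptor genes, and nearer for *Ube2c*, *Birc5* and *Top2a*.

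**Figure D5:**
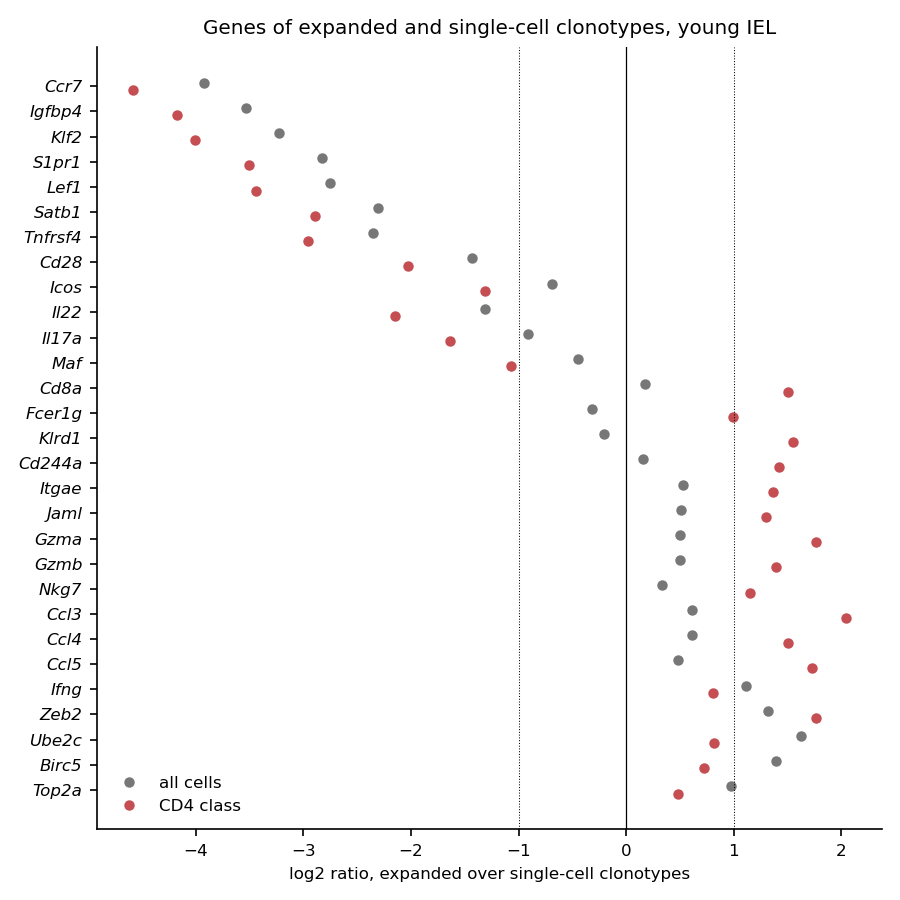
Log2 ratio of the level in expanded over single-cell clonotypes (x axis, after adding 0.1 to both levels) for 29 genes in all cells (grey) and in the CD4 class (red); dotted lines mark 2-fold and no error over mice can be given. *Gzma* went from 0.50 in all cells to 1.76 in the CD4 class and *Cd8a* from 0.18 to 1.5.

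Leaving out the naive-like cells removed 238 of the 492 single CD4 cells and 28 of the 396 expanded ones. The genes past 2-fold in the CD4 class then numbered 52, of which 34 were among the 102. Those higher in expanded cells fell from 40 to 7. The number tested without these cells is not given, so these counts are not shares. The CD4 class was also split by *Cd8a*, a split chosen after seeing the data. Among CD4 cells with a *Cd8a* UMI, 252 expanded and 90 single, 21 of 3327 genes (0.631%) were past 2-fold, 5 higher (0.15%) and 16 lower (0.481%), of which 6 were TCR segments, and *Gzma* had 353 against 291. These cells differed in *Fcer1g*, found in 42.1% of the expanded and 57.8% of the single ones. With *Fcer1g* (106 and 52 cells), 26 of 3378 genes (0.77%) were past 2-fold, and without it (146 and 38 cells) 73 of 3252 (2.24%). TCR segments were 9 of the 26 and 7 of the 73. *Ifng* went opposite ways in the 2 sets, with ratios of -1.13 and 1.04. Among those without *Cd8a*, 144 and 402 cells, 104 of 3244 (3.21%) were past 2-fold, 45 higher (1.39%) and 59 lower (1.82%). Of the 104, 7 were TCR segments, and *Gzma* had 156 against 23.1. Among those with *Cd8a*, *Ccr7* was found in 0 of 252 expanded cells, which allows up to 1.19% by the limit of 3 counts and 1.45% by the exact interval. It was found in 4.44% of single cells after thinning (1.22 to 11.0) and in 6.67% before. The exact intervals of the thinned shares overlapped. The intervals of its level lay apart, at 0 (0 to 0.0179) UMIs per 10000 in expanded and 0.376 (0.253 to 0.536) in single cells. Among those without *Cd8a*, *Ccr7* was found in 0.694% and 26.6% after thinning. Depth, cell number, *Fcer1g* and the share of naive-like cells moved with this split, and their part in the counts was not tested.

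In the CD8αβ class, 89 expanded cells of 20 clonotypes were set against 152 single cells, and 31 of 3270 genes (0.948%) were past 2-fold, 21 higher (0.642%) and 10 lower (0.306%), of which 9 were TCR segments. Which genes were called depended on how clones and cells were weighted: 9 of the 31 were among the 44 called with equal weight per clonotype, 12 among the 24 called from a mean over cells and 12 among the 42 called without cycling cells. The cell cycle list led, with 8 of 13 members higher past 2-fold and a median of 1.03 against 0.02 over all genes. *Ube2c* had 2.01 against 0.362, *Top2a* 2.22 against 0.794 and *Pclaf*, a partner of the replication clamp, 1.61 against 0.450. *Ube2c* was found in 6.74% of the expanded and 5.92% of the single cells, however, and it had 0 UMIs in 9 of the 12 clonotypes with at least 3 such cells, with a highest level of 5.70 in clonotype10. Its ratio was 2.19, 1.36 without clonotype10 (the largest clone of this class), 0.97 with equal weight per clonotype and -0.38 without cycling cells. That of *Top2a* was 1.38, 1.04 without clonotype10 and 0.70 with equal weight. *Top2a* was found in 21.3% of expanded and 24.3% of single cells, with 9 of 12 clonotypes below the single cells, and *Pclaf* was at 0 in 10 of 12. Lower were *Klf2* (0.201 against 1.32), whose ratio of -2.24 became 0.25 without naive-like cells, and *Tcf7*, a transcription factor of naive and stem-like T cells (0.510 against 1.30), whose ratio of -1.20 was -0.998 without clonotype10 and no longer reached 2-fold. *Gzma* was close to equal, with 221 against 209, and *Cd8b1* had 7.85 against 10.1. The cytotoxic list had 0 of 11 past 2-fold and a median of 0.08.

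In the CD8αα class with *Fcer1g*, 117 expanded cells of 23 clonotypes and 374 single cells were compared, and 10 of 3424 genes (0.292%) were past 2-fold, 5 higher (0.146%) and 5 lower (0.146%), with 7 TCR segments among them. The 3 others were *Stmn1*, *Klra7* and *Ltb*. *Stmn1*, a microtubule regulator of dividing cells, had 0.911 against 0.102, with 0 UMIs in 11 of 17 clonotypes and a highest of 14.9 in clonotype74. *Klra7* had 0.732 against 3.25, with 0 UMIs in 15 of 17 clonotypes and a highest of 19.9 in clonotype21. *Ltb*, the gene of lymphotoxin β, had 0.372 against 0.963, and 15 of 17 clonotypes lay below the single cells, and its ratio of -1.17 was -0.98 without clonotype5. *Gzma* had 453 against 394, *Lag3* was found in 53.8% (44.4 to 63.1) against 52.9% (47.7 to 58.1), and *Ifng* in 2.56% (0.532 to 7.31) against 2.67% (1.29 to 4.86), after thinning. The number of genes past 2-fold was thus smallest in the CD8αα class with *Fcer1g* and largest in the CD4 class, but the classes differed in cell number, and these counts were not tested against each other.

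The same contrast was taken in old IEL, where 74 clonotypes of at least 5 barcodes held 2991 cells and 664 cells were single. *Cd4* was found in 36.8% of expanded (35.1 to 38.6) and 19.2% of single cells (16.2 to 22.4) after thinning, and in 27.8% of expanded cells (25.3 to 30.3) without the 2 largest clonotypes. *Trdc* was found in 1.11% against 5.94%, and the part of the rule of TRA and TRB chains was not tested here either. *Cd8b1* was found in 4.27% (3.58 to 5.07) of expanded and 13.9% (11.3 to 16.7) of single cells, and in 9.26% (7.72 to 11.0) of expanded cells without the 2 largest. The log2 ratio of *Ccr7* was -3.92 in young and -1.84 in old IEL, that of *Ifng* 1.12 and 0.68 (0.33 in old IEL without the 2 largest clonotypes), and that of *Birc5* 1.40 and -0.14. *Tcrg-C1*, a constant region of the γ chain, had -0.80 in young and 1.10 in old IEL, or 0.62 in old IEL without the 2 largest clonotypes. The difference between the ages was not tested, as each is 1 pool.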

How the data were processed

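The authors pooled cells by hashtag, sequenced 5' gene expression and TCR libraries, and made the deposited UMI count matrices and TCR contig tables with Cell Ranger (7.0.1 in the submitters' processing notes) on mm10. Per the labels, 1 pool stands for each group. No step against doublets is given in the sources used here, and none was applied; cells with more than 1 TRB were counted. Clonotypes are the authors' identifiers, joined to matrix barcodes. Counts as deposited were summed per group and gene and divided by the total (level, UMIs per 10000), with a constant of 0.1 added before log2. Genes with a mean level of at least 0.5 over the expanded and single cells were compared. A gene low in one of them could thus be included through the other. No test was made, since cells are not replicates. Intervals are exact, at 95%, and cover counting error only. The limit for a share of 0 uses 3 counts.

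Named genes were taken, in each comparison, from the 8 highest and the 8 lowest log2 ratios (V, D and J segments left out) that kept their sign without the largest clonotype and with clonotypes weighted equally, up to 4 members of each list with the largest ratio, the 5 lineage genes and the TCR constant regions. *Foxp3*, the genes compared by kind of clonotype and those of the *Cd8a* split were chosen after their values were seen. *Gzma* in the CD8αβ class, and *Lag3* and *Ifng* in the CD8αα class with *Fcer1g*, were also named outside this rule. The 13 gene lists hold natural IEL and NK receptor, cytotoxic, cytokine, inhibitory, naive, residency, TCR signalling, lineage factor, T helper 17 and regulatory, cell cycle, epithelial, B cell and myeloid genes. The members and lists were chosen with earlier results of these data known. Coordinates and germline segments come from GENCODE M21 (GRCm38). The scripts were tested on simulated data. Python 3.11.15, numpy 2.4.6, scipy 1.17.1, pandas 2.3.3 and matplotlib 3.10.9 were used. Alternatives changed the size threshold, clonotype definition, chains, thinning, class gate, constant, minimum level, averaging and clone weights, or left out cells or clonotypes.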

Additional observations from a re-analysis of the deposited data

How the results depend on the processing

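Differences are expanded minus single cells in percentage points. By TRB CDR3 instead of the clonotype identifier, shares with a UMI differed by 9.61 (*Cd4*), 21.1 (*Cd8a*), -3.21 (*Trdc*) and -0.547 (*Fcer1g*), and the classes by 15.9 (CD4) and -4.85 (*Trdc*). With both chains they were 21.8 (*Cd8a*) and -0.761 (*Trdc*), and 18.6 (CD4 class) and -1.57 (*Trdc* class). At 10 or more barcodes *Cd8a* was 20.8. Without single cells sharing a TRB, *Cd8a* was 20.7, *Trdc* -4.71 and the *Trdc* class -7.71. Thinned to 1000 UMIs, *Cd4* was 6.29 and *Trdc* -4.0; unthinned, 22.4 and -11.3. A gate of 2 UMIs gave 18.0 (CD4), -3.53 (CD8αα with *Fcer1g*), 7.60 (CD8αα without) and -7.82 (*Trdc*), and a gate on thinned cells 14.5, -4.58, 10.8 and -6.84. Without naive-like cells, an alternative chosen after seeing the data, *Cd8a* changed sign to -0.696, *Trdc* was -9.02, *Fcer1g* -18.8, and the classes 31.5 (CD4), -17.6 (CD8αα with *Fcer1g*) and -15.1 (*Trdc*).

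Counts of genes past 2-fold, for all cells, the CD4, CD8αβ and CD8αα with *Fcer1g* classes, were 7, 33, 8 and 3 with a constant of 1, 64, 166, 85 and 24 at a minimum level of 0.2, and 104, 231, 175 and 65 with no minimum. Without naive-like cells they were 20 (all) and 52 (CD4). A lower minimum lets more genes be tested. The number tested is not given for the alternatives, so no count of this paragraph can be read as a share. The CD8αβ class gave 20 at 3 or more barcodes and 60 at 10 or more. The CD8αα class with *Fcer1g* gave 19 at 10 or more barcodes, 16 with both chains, 6 with clonotypes weighted equally and 16 without cycling cells. Single genes changed sign without naive-like cells (*Cd8a* -0.16 and *Klf2* 0.13 in all cells, *Igfbp4* 0.19 in CD4, *Klf2* 0.25 in CD8αβ), by TRB CDR3 (*Cd74* 1.17 in CD8αβ), at 3 or more barcodes (*Fcer1g* -0.0546 in CD8αβ), without cycling cells (*Ube2c* -0.38 in CD8αβ) and at 10 or more barcodes (*Xcl1* -1.93 in CD8αα with *Fcer1g*). The cause was not tested. Genes that define naive-like or cycling cells have no value without those cells; both of these alternatives and the CD4 split were chosen after seeing the data. No paired analysis was possible because each group is 1 pool. Depth, with a median of 6197 UMIs per single cell, limits what can be seen of genes with low levels.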
